A study of Mus musculus with 19 samples.

Results

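Cell junctions hold endothelial cells to each other and set how tightly a vessel wall is sealed. The genes described here are 10 mouse genes of endothelial junctions: Cldn5, Cgnl1, Tjp1 and Ocln of tight junctions, the cadherin genes Cdh5 and Cdh13, and Esam, F11r, Jam2 and Jam3, which encode immunoglobulin-like adhesion molecules. They were selected by gene symbol: a probe set was taken where its single symbol in the platform annotation was 1 of the 10 names. Each gene had 1 such probe set, so 10 of 28856 probe sets and 10 of 19938 named genes are described, and all 10 were measured and tested. The cells came from BALB/c mice, an inbred laboratory strain, and per the labels every sample pooled adults of both sexes in equal parts, aged 6 to 8 weeks. No genetic change or treatment is given for any group. RNA of 19 sorted endothelial samples was hybridised to 1 array each. From Peyer's patches, lymphoid tissue within the wall of the gut, came 3 arrays of high endothelial cells (HEC) and 3 of capillary cells. From mesenteric lymph nodes, the nodes of the intestine, came 2 arrays of HEC sorted as MAdCAM1+/PNAd+, 2 of HEC sorted as MAdCAM1+ and 2 of capillary cells. From peripheral lymph nodes came 4 arrays of HEC and 3 of capillary cells. The sorting gates of the other groups are not given in the sources used here.

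As background, endothelial tight junctions are built from claudin strands tied to the cytoskeleton by scaffold proteins, and adherens junctions from VE-cadherin and its catenins. In most vessels of the body these contacts limit leakage of plasma. High endothelial venules are the vessels where blood lymphocytes cross in large numbers into lymph nodes and Peyer's patches, squeezing between or through their tall lining cells, and junctional adhesion molecules take part in leukocyte passage.

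The deposited log2 signals had been centred probe set by probe set. They show differences between arrays for 1 gene and not the level of 1 gene against another, and detection above background is unknown. The sorted cells carried the markers of their labels. In HEC, 6 of 6 high endothelial markers were higher and 5 of 5 capillary markers were lower than in capillary cells. Over all genes 18.0% were higher and 15.9% lower in that comparison, the mean of the 3 tissues. Madcam1, 1 of the 6, encodes the protein MAdCAM1 of the mesenteric sort gates, and the lists were chosen with earlier results of these data known. These counts are thus no independent test of cell identity. Of 12 pan-endothelial markers, 1 was higher, 5 were lower and 6 did not pass the test. Over the high endothelial markers the mean centred value was 3.64 to 4.34 on the 11 HEC arrays. It was 0.13, 1.08 and 1.32 on the peripheral capillary arrays 3, 2 and 1, and -0.93 to -0.18 on the other 5 capillary arrays. The capillary markers averaged -1.18 to -0.50 on HEC arrays, against 2.98, 3.38 and 3.35 on peripheral capillary arrays 1, 2 and 3 and 3.19 to 4.21 on the other capillary arrays. Peripheral capillary arrays 1 and 2 thus had high endothelial markers above the other capillary arrays and over 2 log2 units below HEC. The junction gene differences that use them, and the counts of all genes passing those tests, were also computed without them. This leaves 1 peripheral capillary array, assumed to vary like the other groups. Results for the markers, the other gene lists, the order of group means, the overlap of arrays and the correlations are given with these arrays only. Labels do not say that arrays of a group came from separate mice or sorts, and the p-values rest on the spread among these samples alone, part or all of which may be technical. Over all genes, the SD of the difference between 2 arrays of a group was 0.27 to 0.45 in Peyer's patch HEC and 0.20 to 0.29 in the other groups. In sorted pools, fewer cells of a type and less RNA per cell cannot be told apart.

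HEC were first set against capillary cells as the mean of the 3 tissues, with limma and Benjamini-Hochberg adjustment over all genes at a threshold of 0.05. Of the 10 junction genes, 6 were lower in HEC (Cldn5, Cdh5, Cdh13, Esam, F11r and Cgnl1), none was higher, and Ocln, Tjp1, Jam2 and Jam3 did not pass. Over all 19938 genes 33.9% were called in this comparison, 18.0% as higher and 15.9% as lower. The members' median difference was -0.41 log2, and that of all genes was -0.01. For 4 of the 10 (Cldn5, Cdh5, Cdh13 and Cgnl1) all 11 HEC arrays lay below all 8 capillary arrays, a separation in that direction seen in 4.45% of all genes. The opposite separation, seen in 4.36% of all genes, was found in 0 of 10 members. The genes differed widely in size of response, from 16.8-fold for Cdh13 to 1.29-fold for Cdh5. Without peripheral capillary arrays 1 and 2 the count was also 6 lower and 0 higher, among them Cldn5 (-1.86, adjusted p = 3.99e-06) and Cdh13 (-3.99, adjusted p = 6.34e-13).

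**Figure D1:**
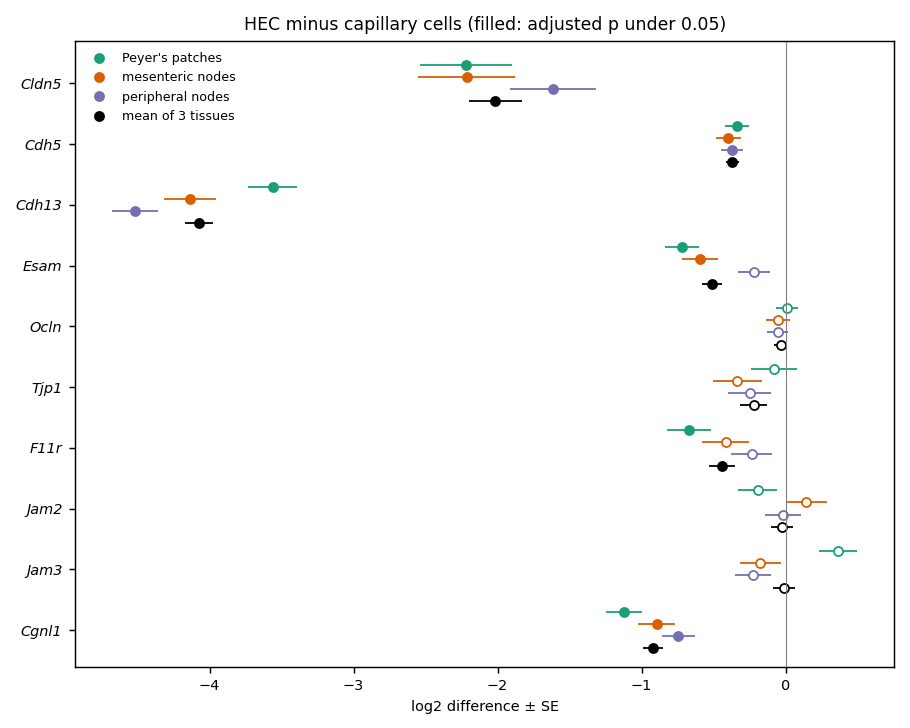
Difference of HEC minus capillary cells for the 10 junction genes, in log2 with the standard error of the limma model as bars, shown by tissue and for the mean over the 3 tissues. Filled points passed an adjusted p of 0.05. Cdh13 lies furthest left, at -3.56 to -4.52 by tissue, followed by Cldn5 and Cgnl1, while Jam2 and Jam3 have points on both sides of 0.

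Among the tight junction genes, Cldn5 encodes claudin-5, the claudin that forms the strands of endothelial tight junctions, and lies at chr16:18776847-18778262 (GRCm38.p6, RefSeq). Its centred log2 signal ran from -0.95 through a median of -0.34 to 0.72 on the HEC arrays, against 0.99, 1.78 and 2.34 on the capillary arrays. It was 4.05-fold lower in HEC (-2.02 ± 0.18 log2, ± SE, adjusted p = 9.64e-08 by limma). By tissue its values were -0.67, -0.86 and -0.90 in Peyer's patch HEC, against 2.21, 1.03 and 0.99 in Peyer's patch capillary cells. In mesenteric nodes they were 0.35 and -0.34 in MAdCAM1+/PNAd+ HEC and -0.69 and -0.95 in MAdCAM1+ HEC, against 2.23 and 1.38 in capillary cells. In peripheral nodes they were 0.72, 0.14, 0.59 and -0.05 in HEC, against 2.07, 2.34 and 1.49 in capillary cells. The 2 cell types did not overlap in any tissue, and the highest HEC values came from peripheral nodes and from 1 double-positive mesenteric array.

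Cgnl1 (chr9:71626507-71809300) encodes paracingulin, a scaffold protein shared by tight and adherens junctions. It ran from -0.86 through -0.52 to -0.25 on the HEC arrays, against 0.08, 0.47 and 0.71 on the capillary arrays, and was 1.90-fold lower in HEC (-0.92 ± 0.07, adjusted p = 1.17e-08). The 3 Peyer's patch capillary arrays (0.55, 0.55 and 0.71) were the highest of all. Mesenteric capillary arrays lay at 0.08 and 0.30 and peripheral ones at 0.42, 0.19 and 0.52.

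The other tight junction members, Tjp1, which encodes the scaffold ZO-1, and Ocln, which encodes the multi-pass protein occludin, were not called in this comparison. Tjp1 ran from -0.42 through -0.06 to 0.37 in HEC, against 0.03, 0.13 and 0.67 in capillary cells, and the groups overlapped. Its difference was -0.22 ± 0.09 (adjusted p = 0.0781), with an interval of -0.42 to -0.03. That call was close to the threshold: the adjusted p was 0.0441 without Peyer's patch capillary array 3, 0.0481 without peripheral capillary array 2, 0.0487 without Peyer's patch HEC array 3, 0.0498 without peripheral capillary array 3 and 0.0201 with array quality weights. The fit with array quality weights, here and below, stopped before it converged. Ocln ran from -0.14 through -0.03 to 0.35 in HEC, against -0.05, 0.01 and 0.38 in capillary cells, and both cell types were highest in Peyer's patches. Its difference was -0.03 ± 0.04 (adjusted p = 0.622), with an interval of -0.13 to 0.06, so a change in signal of the size seen in Cldn5 or Cgnl1 lay outside it. Ocln ranged over 0.52 log2 on the 19 arrays, below the cut of 0.77 used as a range filter. That cut was the 95th percentile of the ranges of 1194 olfactory and vomeronasal receptor genes. Detection is unknown, so the interval speaks of the array signal alone.

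The stretches of 250 bases before an annotated start are given for the 3 genes that were lower in HEC and had an entry in the promoter table, and for Ocln, which was not called. They come from RefSeq on build GRCm38.p6, which had entries for 5 of the 10 members (Cldn5, Ocln, Tjp1, F11r and Cgnl1). Each is written 5′ to 3′ on the strand of its gene. Capitals mark the letters GGAA on either strand (TTCC on the other), the core of the binding motif of ETS factors, a family that includes regulators of endothelial genes.
Cldn5: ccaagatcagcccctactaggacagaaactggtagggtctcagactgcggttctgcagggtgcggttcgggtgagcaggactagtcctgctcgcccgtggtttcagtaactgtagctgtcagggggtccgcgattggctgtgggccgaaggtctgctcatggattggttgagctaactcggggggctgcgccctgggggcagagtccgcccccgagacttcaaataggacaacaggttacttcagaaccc
F11r: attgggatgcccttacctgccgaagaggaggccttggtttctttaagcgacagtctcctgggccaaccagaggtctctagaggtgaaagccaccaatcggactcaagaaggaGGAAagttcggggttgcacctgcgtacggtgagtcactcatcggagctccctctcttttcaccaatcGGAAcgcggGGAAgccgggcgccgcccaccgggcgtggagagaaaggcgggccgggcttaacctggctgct
Cgnl1: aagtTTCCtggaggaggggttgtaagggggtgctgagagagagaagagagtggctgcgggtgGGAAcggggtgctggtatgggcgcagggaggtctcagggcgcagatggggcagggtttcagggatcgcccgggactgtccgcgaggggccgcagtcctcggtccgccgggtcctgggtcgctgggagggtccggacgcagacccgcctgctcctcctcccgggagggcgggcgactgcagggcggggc
Ocln: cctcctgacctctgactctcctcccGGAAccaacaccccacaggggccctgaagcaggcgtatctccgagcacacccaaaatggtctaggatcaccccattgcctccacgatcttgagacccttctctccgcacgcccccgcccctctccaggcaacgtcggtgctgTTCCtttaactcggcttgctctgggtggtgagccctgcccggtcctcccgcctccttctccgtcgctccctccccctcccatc
The Cldn5 stretch is chr16:18776597-18776846 on the plus strand, and the F11r stretch is chr1:171437311-171437560 on the plus strand. The Cgnl1 stretch is chr9:71771603-71771852 and the Ocln stretch chr13:100552719-100552968, both on the minus strand. The Cgnl1 stretch lies inside the span of the gene given above, before an internal start, and Ocln has a second annotated start. The core motif occurred 0 times in the Cldn5 stretch, 3 times in that of F11r, 2 times in that of Cgnl1 and 2 times in that of Ocln. Of 32851 stretches of the same length before annotated mouse gene starts, 93.4% held it, with a median of 3 matches. The GC box GGGCGG, on either strand, occurred 1 time in Cldn5, F11r and Ocln and 2 times in Cgnl1, and 32.7% of all stretches held it. These are matches of letters within the stretch and not sites.

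The cadherin genes moved by very different amounts. Cdh5 encodes VE-cadherin, the adhesive core of endothelial adherens junctions, and lies at chr8:104101613-104144504 (GRCm38.p6). Its HEC arrays spanned -0.05 to 0.15 with a median of 0.00, against 0.31 to 0.48 with a median of 0.41 in capillary cells. The difference of -0.37 ± 0.05 (adjusted p = 6.26e-06) was only 1.29-fold, yet no HEC array reached a capillary array. Its range over all 19 arrays, 0.53 log2, was wider than that of 27.8% of genes.

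Cdh13 encodes T-cadherin, a cadherin held in the membrane by a lipid anchor and known as a receptor for adiponectin, and lies at chr8:118140017-119324929 (GRCm38.p6). Its values were -1.30, -0.67 and -1.19 in Peyer's patch HEC, against 2.89, 2.37 and 2.27 in Peyer's patch capillary cells. They were -1.15 and -0.89 in MAdCAM1+/PNAd+ and -0.89 and -0.95 in MAdCAM1+ mesenteric HEC, against 3.26 and 3.07 in mesenteric capillary cells. In peripheral nodes the 4 HEC arrays lay between -0.94 and -0.85, against 3.85, 3.65 and 3.37 in capillary cells. HEC of all tissues thus sat in a narrow band, with a gap of over 2 log2 units up to the lowest capillary array. The difference of -4.07 ± 0.10 (adjusted p = 3.23e-15) ranked 11 among 19938 genes by size.

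**Figure D2:**
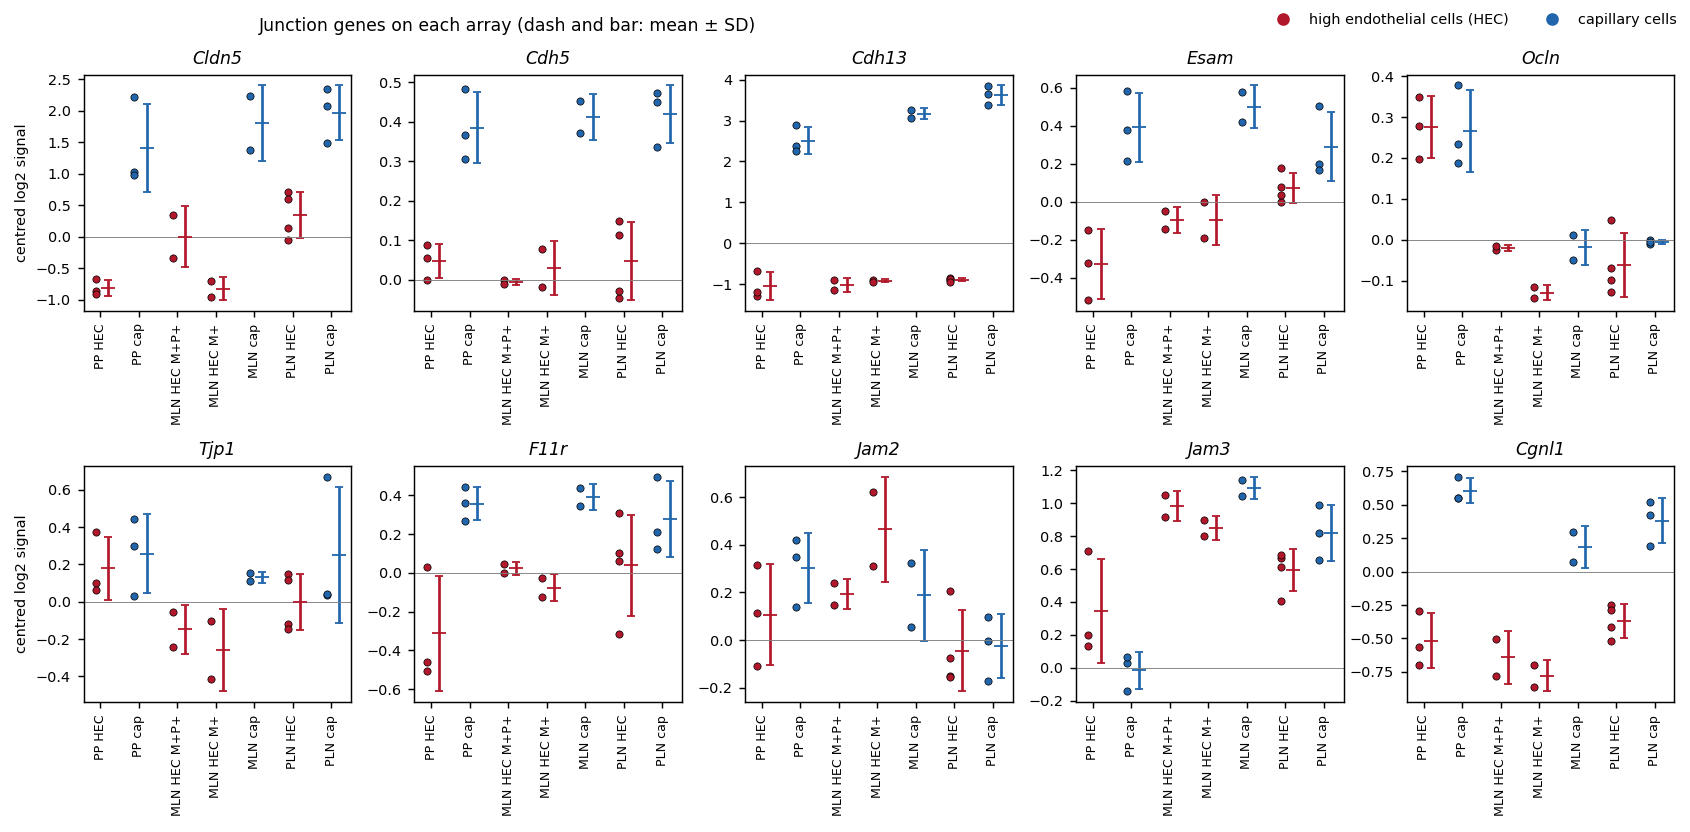
Centred log2 signal of each junction gene on each of the 19 arrays (points), with the mean and SD of its group as a dash and bar. HEC are red and capillary cells blue, PP stands for Peyer's patches, MLN for mesenteric and PLN for peripheral lymph nodes, and M+P+ and M+ for the MAdCAM1+/PNAd+ and MAdCAM1+ sorts. Cldn5, Cdh5, Cdh13 and Cgnl1 show no overlap of red and blue points, while Ocln is highest in both Peyer's patch groups and Jam3 lowest in Peyer's patch capillary cells.

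Of the immunoglobulin-like members, Esam and F11r were lower in HEC, and Jam2 and Jam3 were not called. Esam, an adhesion molecule of endothelial tight junctions and platelets, ran from -0.52 through -0.05 to 0.18 in HEC, against 0.17, 0.40 and 0.58 in capillary cells. It was 1.43-fold lower (-0.51 ± 0.07, adjusted p = 1.16e-05), with overlap only between single peripheral arrays. F11r encodes the junctional adhesion molecule JAM-A and ran from -0.51 through 0.00 to 0.31 in HEC, against 0.12, 0.35 and 0.50 in capillary cells. It was 1.36-fold lower (-0.44 ± 0.09, adjusted p = 0.000678). Jam2 encodes JAM-B, a partner of JAM-C, and ran from -0.16 through 0.15 to 0.62 in HEC, against -0.17, 0.12 and 0.42 in capillary cells. The groups overlapped throughout, with a difference of -0.02 ± 0.08 (adjusted p = 0.856, interval -0.19 to 0.14). Jam3 (chr9:27097384-27155421) encodes JAM-C and ran from 0.14 through 0.68 to 1.05 in HEC, against -0.14, 0.73 and 1.14 in capillary cells. It differed by -0.01 ± 0.08 (adjusted p = 0.92, interval -0.18 to 0.15), and its low capillary values came from Peyer's patches alone.

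Within each tissue the same contrast asked where HEC and capillary cells differed. In Peyer's patches 6 of 10 members were lower in HEC and none higher, against 19.5% of all genes called, 8.90% as higher and 10.6% as lower. These were Cldn5 (-2.22 ± 0.32), Cdh5 (-0.34 ± 0.08), Cdh13 (-3.56 ± 0.17), Esam (-0.72 ± 0.12), F11r (-0.67 ± 0.15) and Cgnl1 (-1.12 ± 0.12), with limma adjusted p-values from 0.00606 down to 8.44e-11. In mesenteric nodes 5 were lower (all of these but F11r), with 15.2% of all genes called, 7.87% as higher and 7.31% as lower. F11r there differed by -0.42 ± 0.16 (adjusted p = 0.104) although its 4 HEC arrays lay below both capillary arrays. It passed after a second quantile normalization (adjusted p = 0.0318), with array quality weights (adjusted p = 0.0307), without Peyer's patch HEC array 3 (adjusted p = 0.0457) and with only the compared groups (adjusted p = 0.0171). In peripheral nodes 4 were lower: Cldn5 (-1.62 ± 0.30), Cdh5 (-0.37 ± 0.08), Cdh13 (-4.52 ± 0.16) and Cgnl1 (-0.75 ± 0.12). There 24.6% of all genes were called, 13.1% as higher and 11.4% as lower. Esam did not pass in peripheral nodes (-0.22 ± 0.11, adjusted p = 0.165), where its values were 0.00, 0.18, 0.08 and 0.03 in HEC, against 0.50, 0.20 and 0.17 in capillary cells.

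The differences within tissues changed with the arrays kept. With 1 peripheral capillary array (without arrays 1 and 2), the peripheral difference was -1.14 for Cldn5 and -0.29 for Cdh5. It was -4.26 for Cdh13 and -0.89 for Cgnl1. Without mesenteric capillary array 1, which left 1 capillary array there, the mesenteric difference was -0.36 for Cdh5 and -0.52 for Esam. Cdh5 in Peyer's patches had an adjusted p = 0.0875 when only the 2 groups compared entered the fit. Of 9 markers of pericytes and smooth muscle 7 were also lower in HEC and 1 was higher in the mean of the tissues. Their mean centred value was -0.90 to -0.41 on HEC arrays, against -0.23 to 1.21 on capillary arrays. Of 7 B cell markers 6 were higher in HEC. The part of other cells in the junction gene differences was not tested.

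HEC were then compared between tissues, where the differences were smaller and less stable. Between Peyer's patch and peripheral HEC 3 of 10 members passed, 1 as higher and 2 as lower, against 6.65% of all genes (2.16% higher and 4.49% lower). Cldn5 was lower in Peyer's patch HEC (-1.16 ± 0.30, adjusted p = 0.0253), with -0.90 to -0.67 on its 3 arrays against -0.05 to 0.72 on the 4 peripheral arrays. Esam was lower too (-0.40 ± 0.11, adjusted p = 0.0395), at -0.32, -0.52 and -0.15 in Peyer's patches. Ocln was higher in Peyer's patch HEC (0.34 ± 0.07, adjusted p = 0.00828), at 0.35, 0.20 and 0.28, against 0.05, -0.10, -0.13 and -0.07 in peripheral HEC. The arrays of the 2 tissues did not overlap for any of these 3 genes, and the share of all genes without overlap was not counted. Of 12 pan-endothelial markers, none of them a member, 3 were also lower in Peyer's patch HEC and 0 higher, with a median difference of -0.20, against 0.03 for all genes. Their mean centred value was 0.02, -0.14 and 0.15 in Peyer's patch HEC, against 0.16, 0.26, 0.38 and 0.17 in peripheral HEC. The part of this shift in the Cldn5 and Esam differences was not tested. After a second quantile normalization none of the 3 passed (adjusted p = 0.0608 for Cldn5, 0.0854 for Esam and 0.0508 for Ocln). Without Peyer's patch HEC array 1 none passed either. Only Ocln passed without Peyer's patch HEC array 2, without peripheral HEC array 1 or without peripheral HEC array 3. The Esam call was also lost without peripheral HEC array 2 (adjusted p = 0.0901), peripheral HEC array 4 (adjusted p = 0.074) or Peyer's patch capillary array 2 (adjusted p = 0.0532). Without Peyer's patch HEC array 3, 5 members passed, and F11r (-0.52, adjusted p = 0.0151) and Jam3 (-0.43, adjusted p = 0.0122) were also lower. Over all genes the main fit called 1326 in this contrast, and leaving out single arrays took that count as high as 5300. With array quality weights 8 members passed, and with the filter on range or with only the compared groups 1 passed. Over all genes, alternatives other than leaving out single arrays called 743 to 11209.

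Between Peyer's patch and mesenteric HEC 2 of 10 members passed, 1 as higher and 1 as lower, against 1.20% of all genes (0.557% higher and 0.642% lower). Ocln was higher in Peyer's patches (0.35 ± 0.07, adjusted p = 0.0218), with mesenteric values of -0.03 and -0.01 in the MAdCAM1+/PNAd+ sort and -0.14 and -0.12 in the MAdCAM1+ sort. Jam3 was lower (-0.57 ± 0.13, adjusted p = 0.0327), at 0.20, 0.14 and 0.71 in Peyer's patches, against 0.80 to 1.05 on the 4 mesenteric arrays. Neither passed without any 1 of the 4 mesenteric HEC arrays or without Peyer's patch HEC array 1, and only Ocln passed without Peyer's patch HEC array 2. The Ocln call was also lost with the replicate number as a block (adjusted p = 0.0627) and after a second quantile normalization (adjusted p = 0.0595), and the Jam3 call after centring arrays on their medians (adjusted p = 0.054). With array quality weights 7 passed, and with only the compared groups none did. Over all genes the main fit called 239, and alternatives other than leaving out single arrays called up to 7138. Mesenteric and peripheral HEC differed in 0 of 10 members by limma, with 4 at an unadjusted p under 0.05 and 2.69% of all genes called. The largest of those was Cldn5, at -0.76 ± 0.27 (adjusted p = 0.194). Of the 10 members, 1 passed after a second quantile normalization (Jam3, 0.40, adjusted p = 0.0387), and 3 with array quality weights. Over all genes the main fit called 537 here, and alternatives other than leaving out single arrays called up to 1199.

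**Figure D3:**
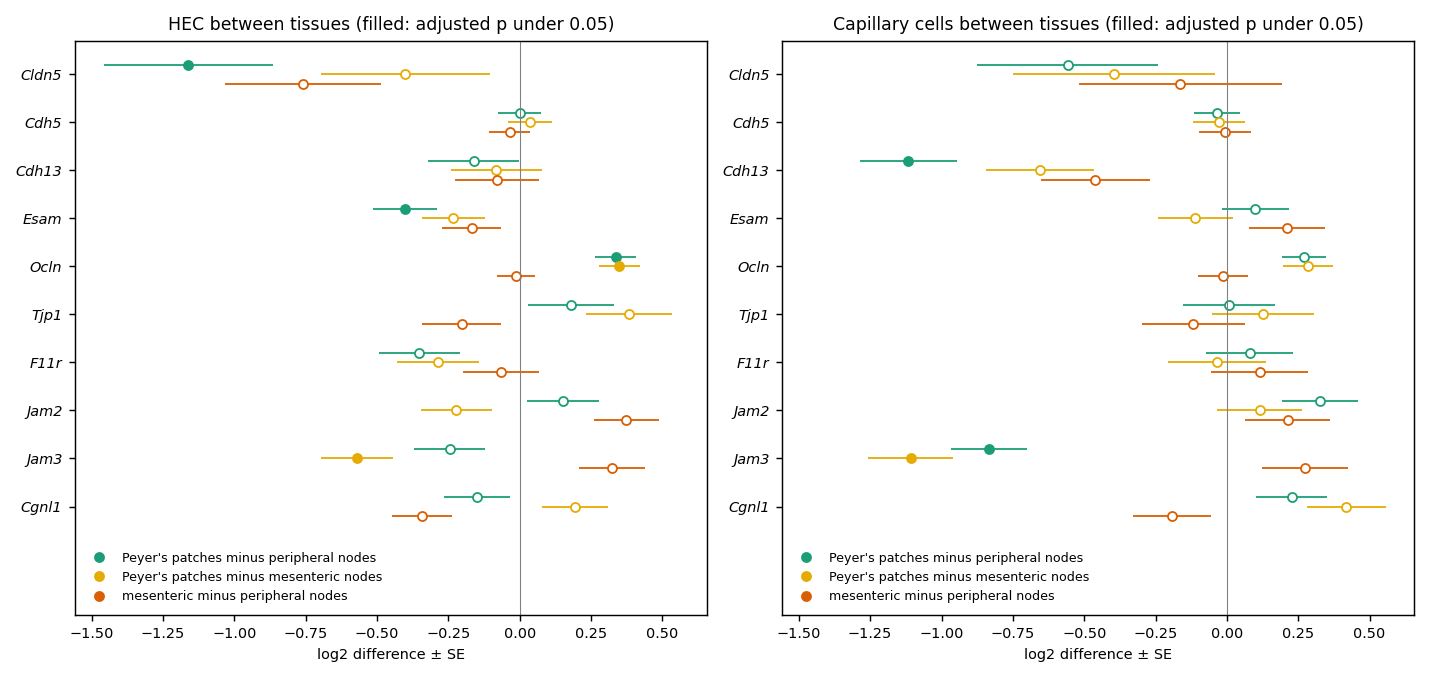
Differences between tissues for the 10 junction genes in HEC (left) and capillary cells (right), in log2 with the standard error of the limma model as bars; filled points passed an adjusted p of 0.05. In HEC the filled points belong to Cldn5, Esam, Ocln and Jam3, and in capillary cells to Cdh13 and Jam3, all in comparisons with Peyer's patches.

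Capillary cells differed between tissues mainly in Jam3 and Cdh13. Jam3 lay at -0.14, 0.03 and 0.07 in Peyer's patch capillary cells, against 1.04 and 1.14 in mesenteric and 0.99, 0.65 and 0.82 in peripheral capillary cells. It was lower in Peyer's patches than in mesenteric nodes (-1.11 ± 0.15, adjusted p = 0.000377) and than in peripheral nodes (-0.83 ± 0.13, adjusted p = 0.000713), with no overlap of arrays. Cdh13 was lower in Peyer's patch than in peripheral capillary cells (-1.12 ± 0.17, adjusted p = 0.000458), and at -0.65 ± 0.19 against mesenteric capillary cells it did not pass (adjusted p = 0.115). These 2 genes were the only members called between Peyer's patch and peripheral capillary cells, where 4.64% of all genes were called and 2.24% were called lower. Jam3 was the only member called against mesenteric nodes, where 1.86% were called and 0.833% were called lower. With 1 peripheral capillary array (without arrays 1 and 2) the Cdh13 difference was -0.86 and did not pass (adjusted p = 0.0926), and that of Jam3 was -0.83 and passed (adjusted p = 0.0341). Of 6 high endothelial markers, 5 were lower and 1 was higher in Peyer's patch than in peripheral capillary cells. With array quality weights 4 members passed against peripheral nodes, and against mesenteric nodes Cdh13 joined Jam3 with those weights, after a second quantile normalization or without Peyer's patch capillary array 1. Over all genes, alternatives other than leaving out single arrays called up to 1516 against peripheral nodes (main fit 925). Against mesenteric nodes they called up to 790 (main fit 370). Ocln was 0.27 ± 0.08 higher in Peyer's patch than in peripheral capillary cells and did not pass (adjusted p = 0.0579). It passed after a second quantile normalization (adjusted p = 0.0243) or centring on array medians (adjusted p = 0.03). Mesenteric and peripheral capillary cells differed in 0 of 10 members by limma, with 1 at an unadjusted p under 0.05 and 0.291% of all genes called. Without peripheral capillary arrays 1 and 2 it was also 0 of 10, with 4 of all genes called in place of 58.

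Markers of other cells also differed between these tissues. For Ocln, which epithelia also express, the 9 intestinal epithelial markers were higher in Peyer's patch than in peripheral HEC for 7 genes and in Peyer's patch than in peripheral capillary cells for 2. Their mean centred value was 0.72, 0.94 and 0.40 in Peyer's patch HEC and 0.14, 0.80 and 1.24 in Peyer's patch capillary cells, and it lay between -0.27 and 0.10 on the 13 lymph node arrays. Epcam, the epithelial adhesion molecule, was higher by 0.98 ± 0.11 in Peyer's patch than in peripheral HEC (adjusted p = 1.4e-05). For Cdh13 and Jam3 in capillary cells, 4 of 9 markers of pericytes and smooth muscle were lower in Peyer's patches than in peripheral nodes, and 2 of 9 than in mesenteric nodes. Their mean was 0.09, -0.23 and -0.07 in Peyer's patch capillary cells, against 0.50 and 0.59 in mesenteric and 0.52, 1.21 and 0.43 in peripheral capillary cells. In peripheral HEC these markers averaged -0.85, the lowest of the 7 groups, with Cdh13 at -0.89 and Jam3 at 0.59. In Peyer's patch capillary cells they averaged -0.07, with Cdh13 at 2.51 and Jam3 at -0.02. Since values were centred, no marker can be given as being at 0 signal. The part of these cells in the Ocln, Cdh13 and Jam3 differences was not tested.

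**Figure D4:**
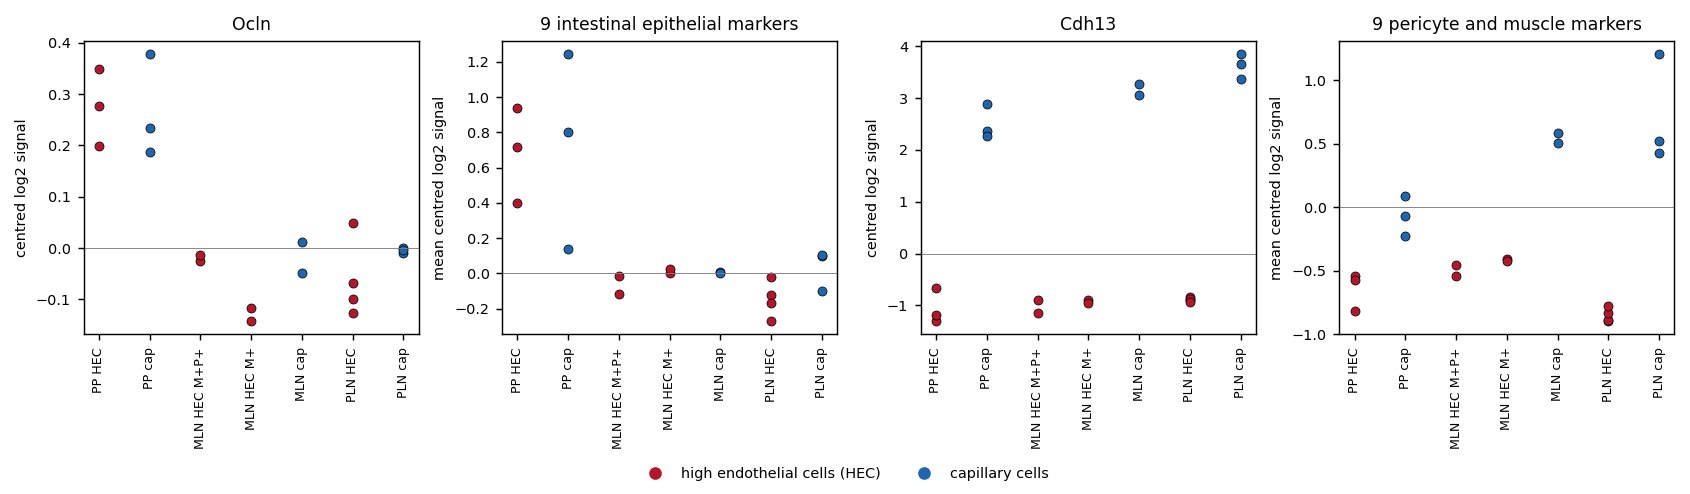
Centred log2 signal of Ocln and Cdh13 on each array beside the mean centred log2 signal of 9 intestinal epithelial markers and of 9 pericyte and smooth muscle markers, with groups as in the plot of all junction genes. The Peyer's patch arrays stand highest for both Ocln and the epithelial markers, and among capillary arrays they stand lowest for both Cdh13 and the pericyte and muscle markers.

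An interaction term asked whether the gap between HEC and capillary cells had the same size in every tissue. Between Peyer's patches and peripheral nodes it passed for 1 of 10 members, Cdh13, against 4.05% of all genes (1.69% in the same direction). The Cdh13 gap was -3.56 in Peyer's patches and -4.52 in peripheral nodes, a difference of 0.95 ± 0.23 (adjusted p = 0.027). Its HEC differed by -0.16 ± 0.16 between these tissues (adjusted p = 0.529) and its capillary cells by -1.12. With 1 peripheral capillary array (without arrays 1 and 2) the interaction was 0.70 (adjusted p = 0.284). It also missed the threshold, at adjusted p-values of 0.0525 to 0.0836, without peripheral capillary array 1 or 2, peripheral HEC array 4, Peyer's patch capillary array 2 or 3, or Peyer's patch HEC array 2, and with only the compared groups. Jam3 was 0.36 ± 0.13 higher in HEC than in capillary cells in Peyer's patches (adjusted p = 0.0709, all HEC arrays above, and 0.0487 with the replicate number as a block) and -0.23 ± 0.13 in peripheral nodes, with an interaction of 0.59 ± 0.18 that did not pass (adjusted p = 0.0887). The Jam3 interaction passed after a second quantile normalization (0.70, adjusted p = 0.0156). Between mesenteric and peripheral nodes the interaction passed for 0 members by limma (1 at an unadjusted p under 0.05, 0.416% of all genes called), and for 0 when Peyer's patches were set against mesenteric nodes (2 at an unadjusted p under 0.05, 0.752% of all genes called).

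The 2 mesenteric HEC sorts were set side by side, MAdCAM1+/PNAd+ against MAdCAM1+, with 2 arrays each. No member passed by limma (0 of 10, 1 at an unadjusted p under 0.05), and 0.0201% of all genes were called. Cldn5 was at 0.35 and -0.34 in the double-positive sort, against -0.69 and -0.95 in the MAdCAM1+ sort, a difference of 0.83 ± 0.39 that ranked 42 of 19938 by size and did not pass (adjusted p = 1). The double-positive arrays lay above the MAdCAM1+ arrays for Cldn5, Ocln, F11r and Jam3 and below them for Jam2, and the groups overlapped for the other 5 members. The share of all genes that separate in this way was not counted, and with 2 arrays against 2 such separation is no result about these members. With 2 arrays in each sort, differences of this size were not resolved.

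Ranked by group mean over the 7 groups, 6 members (Cldn5, Cdh5, Cdh13, Esam, F11r and Cgnl1) had the 3 capillary groups above the 4 HEC groups. For Cldn5, Cdh5, Cdh13 and Cgnl1 the step from the highest HEC to the lowest capillary group passed the test, and no other neighbours in the order did. That step was 1.06 for Cldn5 (Peyer's patch capillary cells over peripheral HEC, adjusted p = 0.0129), 0.34 for Cdh5 (the same groups, adjusted p = 0.00287) and 3.40 for Cdh13 (the same groups, adjusted p = 4.75e-11). For Cgnl1 it was 0.55, between mesenteric capillary cells and peripheral HEC (adjusted p = 0.00525). Of all genes, 25.7% passed between Peyer's patch capillary cells and peripheral HEC, and 20.1% between mesenteric capillary cells and peripheral HEC. For the other 6 members no neighbours passed, which does not show that they were alike. Ocln in Peyer's patch over peripheral capillary cells (0.27 ± 0.08, adjusted p = 0.0579) and Jam3 in Peyer's patch HEC over Peyer's patch capillary cells (0.36 ± 0.13, adjusted p = 0.0709) were neighbours whose arrays did not overlap. With 3 arrays against 3, the share of all genes without overlap was not counted. Over all 21 pairs of groups, 13 passed for Cldn5 and for Cdh13, 12 for Cdh5 and Cgnl1, 10 for Esam, 8 for Jam3, 6 for Ocln, 3 for F11r, 1 for Jam2 and 0 for Tjp1. The share of all genes that passed depended on the pair, from 0.0201% between the 2 mesenteric HEC sorts to 25.7% between peripheral HEC and Peyer's patch capillary cells.

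For the 4 members whose group means spanned at least 1 log2 unit, the genes with the most similar pattern over the 19 arrays were found by Pearson's r, given as a description. Cdh13 was closest to the endothelin receptor gene Ednrb (r = 0.99), the growth factor gene Tgfb2 (0.99) and the basement membrane gene Nid2 (0.99). Cldn5 was closest to Lgals3bp (0.97), which encodes a secreted galectin-binding protein, to the autophagy receptor gene Sqstm1 (0.95) and to Peak1 (0.94). Cgnl1 was closest to Ccdc88c (0.96), the netrin receptor gene Unc5b (0.96) and Enpp3 (0.95). Jam3 was closest to the carboxylesterase gene Ces2e (0.91), Cdipt (0.86) and Fam78b (0.81). The arrays share their 7 groups, so any gene with the same split between groups correlates in this way.

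The other junction lists differed in their counts by direction, with no test between lists. For HEC against capillary cells, mean of 3 tissues, 33.9% of all genes were called. Of all genes 18.0% were higher and 15.9% lower, with a median difference of -0.01. Of 22 other measured tight junction claudins, scaffolds and polarity genes, 7 were higher in HEC, 1 was lower and 14 did not pass, with a median difference of 0.00. Cldn11, a claudin best known from myelin and testis, was higher (1.22 ± 0.08, adjusted p = 1.14e-09), with every HEC array above every capillary array. Cldn15, a claudin of intestinal epithelium that forms cation pores, was lower (-1.05 ± 0.07, adjusted p = 3.31e-09). Marveld3, a relative of occludin, was higher (0.80 ± 0.09, adjusted p = 8.25e-07), as was the polarity scaffold gene Mpp5 (0.48 ± 0.09, adjusted p = 0.000584).

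Of 20 measured adherens junction catenins, nectins and regulators of VE-cadherin, 5 were higher, 10 were lower and 5 did not pass, with a median of -0.22. Jup, which encodes the catenin plakoglobin that binds VE-cadherin, was lower (-2.90 ± 0.07, adjusted p = 1.75e-15). Its centred log2 signal was -2.54 to -2.11 on the HEC arrays, against 0.47 to 0.65 on the capillary arrays. Ptprb, which encodes the phosphatase VE-PTP that associates with VE-cadherin, was also lower (-1.13 ± 0.07, adjusted p = 1.11e-09). Nectin1, an immunoglobulin-like adhesion gene (2.04 ± 0.07, adjusted p = 2.13e-13), and Cdh2, which encodes N-cadherin (1.93 ± 0.10, adjusted p = 4.72e-11), were higher in HEC.

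Of 12 measured genes of other border adhesion molecules and gap junctions, 1 was higher, 5 were lower and 6 did not pass, with a median of -0.15. The connexin genes Gja5 (-3.12 ± 0.10, adjusted p = 1.39e-13) and Gja4 (-2.90 ± 0.10, adjusted p = 2.57e-13), whose products couple arterial endothelial cells, stood lowest. The adhesion genes Mcam (-0.67 ± 0.10, adjusted p = 3.35e-05) and Icam2 (-0.45 ± 0.10, adjusted p = 0.00146) were lower by less. Between Peyer's patch and peripheral HEC, Cldn11 (-1.27 ± 0.13), Marveld3 (-1.23 ± 0.14) and Cdh2 (-1.27 ± 0.16) were lower in Peyer's patches, and Ptprb (1.01 ± 0.12) and Mcam (0.60 ± 0.16) were higher, with limma adjusted p-values from 0.0328 down to 5.5e-06. Of the 22 tight junction genes 4 were higher there and 2 lower, with a median of 0.16, against 0.03 for all genes. Of the 20 adherens junction genes 1 was higher and 1 lower, and of the 12 border and gap junction genes 1 was higher and 0 lower. Over all genes 2.16% were higher and 4.49% lower.

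**Figure D5:**
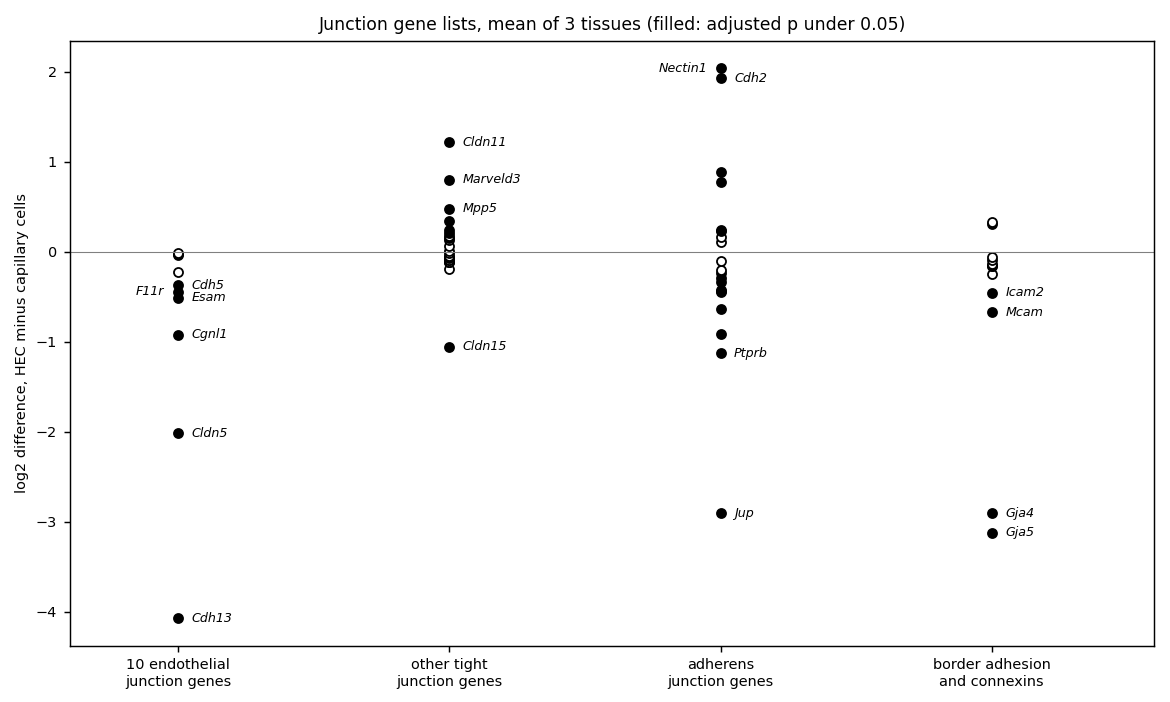
Difference of HEC minus capillary cells, mean of 3 tissues, in log2, for each gene of 4 lists: the 10 junction genes, 22 other tight junction genes, 20 adherens junction genes and 12 genes of border adhesion molecules and connexins. Filled points passed an adjusted p of 0.05. The filled points of the 10 junction genes all lie below 0, while the tight junction and adherens junction lists have filled points on both sides.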

How the data were processed

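RNA of 19 sorted endothelial samples was measured on Affymetrix arrays after whole-transcript amplification, per the labels' protocols. The authors deposited log2 values that the submitters' processing notes link to RMA and Partek, with no version stated. From the values, each probe set is centred near 0, on a baseline that is not given in the sources used here, and background signal cannot be seen. Of 28856 probe sets, 21789 had 1 gene symbol, 1621 had several and 5446 had none. Only those with 1 symbol were used, probe sets of a gene were averaged, and 19938 genes were tested. No low-value filter was used.

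Group means of all 7 groups were fitted to the log2 values with limma 3.58.1 in R 4.3.3 (lmFit and eBayes, 12 residual degrees of freedom, two-sided), with 14 contrasts and Benjamini-Hochberg adjustment over all genes within each contrast, at 0.05. The 21 pairs of groups were tested likewise for the order of group means. Python 3.11.15 with pandas 2.3.3 made the summaries. The number of arrays limits the precision.

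The members and gene lists were chosen with earlier results of these data known. All members are named. Of each other junction list, the 4 genes with the largest called difference between HEC and capillary cells are named, and the 2 such between Peyer's patch and peripheral HEC (1 where only 1 was called). The 3 genes most correlated with a member are named where its group means spanned at least 1 log2 unit, leaving out predicted genes, olfactory and vomeronasal receptors, small RNAs and antigen receptor segments. Epcam was added to name 1 epithelial marker, after its values were seen.

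On simulated data of 19938 genes, drawn for the contrast of HEC between Peyer's patches and peripheral nodes, the fit recovered 95% of 100 genes shifted by 1 log2 unit and 100% of 100 shifted by 2, with 6 unshifted among 201 called. Noise was drawn independently with 1 SD per gene in all groups, while the real Peyer's patch HEC arrays differed more from each other. The simulation does not cover differences as small as 0.34 for Ocln or -0.40 for Esam in this contrast. Same-numbered arrays of different groups did not deviate together (41 pairs, r of deviations from -0.43 to 0.56, median 0.08), so the numbers were not taken to pair the samples. Alternatives covered the replicate block, the choice of probe set, normalization, array weights, a robust prior, a range filter, the groups fitted and the arrays left out.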

Additional observations from a re-analysis of the deposited data

Results flagged for a closer look

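Between tissues, the gap between HEC and capillary cells differed for 1 of the 10 junction genes and for 6 of the 12 named genes of the other junction lists, each by an interaction term in limma. Those 12 were named for large differences between cell types or between Peyer's patch and peripheral HEC, so their number is no measure of the lists. Of the whole lists, 4 of 22 tight junction, 2 of 20 adherens junction and 2 of 12 border and gap junction genes passed for Peyer's patches against peripheral nodes, as did 4.05% of all genes. Cdh13 had a gap of -3.56 in Peyer's patches and -4.52 in peripheral nodes, differing by 0.95 (adjusted p = 0.027), a call that was lost in several of the alternatives given with that result.

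Of the connexin genes, Gja5 had a gap of -4.08 in Peyer's patches, against -2.42 in peripheral nodes (difference -1.66 ± 0.24, adjusted p = 0.000515) and -2.87 in mesenteric nodes (difference -1.21 ± 0.26, adjusted p = 0.0343). Gja4 had -3.56 in Peyer's patches and -2.52 in peripheral nodes (difference -1.03 ± 0.24, adjusted p = 0.0183). Marveld3 was 0.14 higher in HEC in Peyer's patches and 1.40 higher in peripheral nodes (difference -1.26 ± 0.20, adjusted p = 0.00134). Cldn11 was 0.90 higher in HEC in Peyer's patches, 0.91 higher in mesenteric nodes and 1.83 higher in peripheral nodes. Its gap thus differed from the peripheral one by -0.93 ± 0.19 in Peyer's patches (adjusted p = 0.00727) and by -0.92 ± 0.19 in mesenteric nodes (adjusted p = 0.0469). Cldn15 had -0.62 in Peyer's patches and -1.49 in mesenteric nodes (difference 0.87 ± 0.19, adjusted p = 0.0367), and Ptprb -0.80 in Peyer's patches and -1.44 in peripheral nodes (difference 0.64 ± 0.17, adjusted p = 0.0465). The interactions of these list genes with peripheral nodes were not recomputed without peripheral capillary arrays 1 and 2.

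Peripheral HEC, with 4 arrays, were the only group large enough for a test of single arrays that stand apart, and 0 of 10 junction genes had one there, where chance gives about 1 in 20.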

How the results depend on the processing

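Of 4032 repeats of the 140 member results under 29 alternatives, 3937 kept a call with its direction or stayed without a call. Those without a call could change direction, as Jam2 did without peripheral capillary arrays 1 and 2 (0.02 in place of -0.02, mean of 3 tissues). Of the other repeats 48 lost a call, 47 gained one and none turned a call round. The other 28 repeats do not exist because Cdh5 and Ocln fell below the range filter and were not tested there. Of the 140 results, 102 kept their call or its absence in every setting that tested them. The replicate number as a block left 1 member called between Peyer's patch and mesenteric HEC in place of 2, and 153 genes in place of 239. Jam3 in Peyer's patches was gained with it, and no other member call changed. The cause of the changes that follow was not tested, apart from fewer arrays or genes where these were left out. For Peyer's patch against peripheral HEC the 3 members became 0 after a second quantile normalization, 8 with array quality weights (a fit that stopped before it converged), and 1 with the range filter or only the compared groups. Against mesenteric HEC the 2 became 1 after a second quantile normalization, median centring or the range filter, 7 with weights and 0 with only the compared groups. For mesenteric against peripheral HEC the 0 became 1 after a second quantile normalization and 3 with weights. For Peyer's patch against peripheral capillary cells the 2 became 4 with weights and 1 without peripheral capillary arrays 1 and 2, and against mesenteric capillary cells the 1 became 2 after a second quantile normalization or with weights. The Peyer's patch against peripheral interaction count of 1 became 2 after a second quantile normalization, 5 with weights, and 0 without peripheral capillary arrays 1 and 2 or with only the compared groups. Between HEC and capillary cells of peripheral nodes, the Cldn5 difference was -1.14 without those arrays, against -1.62 in the main fit. That of Cdh5 was -0.29, against -0.37. Leaving out each array in turn gave 3 to 6 members for mesenteric nodes, 0 to 5 for Peyer's patch against peripheral HEC, 0 to 2 against mesenteric HEC, 1 to 2 for Peyer's patch against mesenteric capillary cells and 0 to 3 for that interaction. Over all genes, the count for HEC against capillary cells as the mean of tissues was 6751, with 5480 to 8818 under the alternatives. For Peyer's patch against peripheral HEC it was 1326, with 712 to 5300 on leaving out arrays and 743 to 11209 otherwise. Against mesenteric HEC it was 239, with up to 7138 otherwise. For the Peyer's patch against peripheral interaction it was 808, with up to 6443 otherwise. No scaling moved the median of all genes by over 0.1. Signal over background is unknown, so low expression may limit any gene's range.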
